A study of Mus musculus with 32 samples.

Results

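The miRNAs mmu-miR-146a-5p, mmu-miR-146b-5p and mmu-miR-155-5p were chosen by name from the mouse small RNA-seq table, as 3 of its 1513 miRNAs, and were described over all 8 groups of 32 libraries together with the 3 partner strands of the same hairpins. The study placed sheets of cellulose nanofibers (CNF sheets) on moist organ surfaces to take up extracellular vesicles (EVs), the small membrane particles that cells release, and sequenced their small RNA. All libraries came from female nude mice of the strain BALB/cSlc-nu/nu (8 weeks old by the labels, 8 to 10 weeks at injection by the study's methods), which lack a thymus and therefore most T cells but keep B cells, natural killer cells, macrophages and neutrophils. The tumor cells were ID8-T6, a single subclone of the mouse ovarian cancer line ID8 that spreads readily in the peritoneal cavity. In the intraperitoneal (IP) model, day 14 after injection, the groups were CNF sheet EVs of tumor-bearing mice, CNF sheet EVs of normal mice given PBS, tumor tissue and normal ovary (n = 3 libraries each). In the orthotopic (OT) model, with cells placed in the left ovarian bursa, the groups were CNF sheet EVs of the diaphragm and of the pelvis, each on day 4 and day 0 (n = 5 libraries each). The site labelled diaphragm is called the liver surface in the study's text, and whether day 0 sheets were taken before or after transplantation was not stated in the sources used here.

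miR-146a and miR-146b come from 2 different chromosomes but share their seed, the bases that pair with target mRNAs, and they are known to repress the adaptor proteins IRAK1 and TRAF6 downstream of Toll-like and interleukin-1 receptors. Transcription of miR-146a is switched on by NF-kappaB, so that the miRNA is usually described as a brake on inflammatory signaling. miR-155 is processed from an exon of the non-coding gene Mir155hg, rises in activated macrophages and lymphocytes, and represses the inhibitors SHIP1 and SOCS1, so that it is usually described as a promoter of inflammation. All 3 are abundant in leukocytes and have been found in EVs.

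The mature sequences are shown because the closeness of miR-146a-5p and miR-146b-5p decides how far their reads can be told apart. Capitals mark the seed (bases 2 to 8), and sequences and positions are those of RefSeq on GRCm38.p6.
mmu-miR-146a-5p: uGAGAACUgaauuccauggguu
mmu-miR-146b-5p: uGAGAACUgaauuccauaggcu
mmu-miR-155-5p: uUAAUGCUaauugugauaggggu
The same miR-146 pair is shown again with capitals at the bases that differ.
mmu-miR-146a-5p: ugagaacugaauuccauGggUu
mmu-miR-146b-5p: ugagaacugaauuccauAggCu
Counted from 1 at the 5′ end, miR-146b-5p differed from miR-146a-5p by G18A and U21C, which is 2 of 22 bases. As the authors allowed up to 2 mismatches in mapping, a read of one could match the other, and how such reads were assigned was not given in the sources used here. No other mature mouse miRNA in RefSeq shared either seed. miR-146a-5p lay at chr11:43374435-43374456 on the minus strand in the gene Mir146. miR-146b-5p lay at chr19:46342790-46342811 on the plus strand in the gene Mir146b, inside the protein-coding gene Mfsd13a on the same strand but in none of its exons. miR-155-5p lay at chr16:84714143-84714165 on the plus strand, within an exon of the lincRNA gene Mir155hg.

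Libraries held 132483 to 2540577 reads (median 1029112), and the OT sheets of day 4 (132483 to 661582 reads) were all shallower than those of day 0 (1022869 to 2540577 reads). The members had at least 343, 1470 and 23 reads in every library for miR-146a-5p, miR-146b-5p and miR-155-5p. Nothing in the labels says that replicates are separate mice, so the p-values below measure the spread between these samples, which may be technical. Marker miRNAs set some libraries apart. Normal EV replicate 3 held 134100 RPM (reads scaled to 1000000 per library) of 5 red blood cell miRNAs, against 3442 and 6016 RPM in the other normal EV sheets. Diaphragm day 0 replicate 3 held 174765 RPM of 2 hepatocyte miRNAs, against 1297 to 26523 RPM in the other sheets of its group. Tumor tissue replicate 3 held 630 RPM of the ovary markers miR-202-5p and miR-202-3p, within the 581 to 1039 RPM of normal ovary, whereas the other tumor tissues held 0 and 2.07 RPM. Tumor tissue replicate 2 held 2770 RPM of hepatocyte miRNAs, against 9.51 and 150 RPM in the other tumor tissues. The results most affected by these libraries are given with and without them.

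miR-146b-5p was the most abundant of the 3 by mean in all 6 EV groups and miR-155-5p the least abundant in all 8 groups. By group mean, miR-146a-5p stood highest in normal EVs (9225 ± 3292 RPM, SD, n = 3), followed by pelvis day 0, diaphragm day 0, pelvis day 4, tumor tissue and diaphragm day 4 (6443 ± 2397 RPM, n = 5), and each of these neighbours overlapped. It was lower, with no overlap between neighbours in the order, in normal ovary (2935 ± 408 RPM, n = 3). It was lowest in tumor EVs (1117 ± 178 RPM, n = 3), where it ranked 76 by mean level among the miRNAs detected. Single OT sheets lay below the 2469 to 3229 RPM of normal ovary, namely diaphragm day 0 replicate 3 (2166 RPM) and pelvis day 4 replicate 5 (2358 RPM).
For miR-146b-5p the order was diaphragm day 4 (18271 ± 4952 RPM, n = 5, rank 9), pelvis day 4, pelvis day 0, normal EVs, diaphragm day 0 and tumor EVs (7500 ± 634 RPM, n = 3), with overlap between neighbours. Tumor tissue (4222 ± 178 RPM, n = 3) and normal ovary (2433 ± 293 RPM, n = 3) came below, each apart from its neighbours in the order. Diaphragm day 0 replicate 3, at 2138 RPM, nevertheless lay below all libraries of both tissues. The order for miR-155-5p ran from diaphragm day 4 (583 ± 163 RPM, n = 5) through the 5 other EV groups to tumor tissue (189 ± 2.77 RPM, n = 3), all overlapping their neighbours. Normal ovary (65.4 ± 24.1 RPM, n = 3) did not overlap tumor tissue. However, diaphragm day 0 replicate 3, at 60.6 RPM, lay within the 46.7 to 92.6 RPM of normal ovary. The IP and OT experiments were set side by side in these orders without a test.

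**Figure D1:**
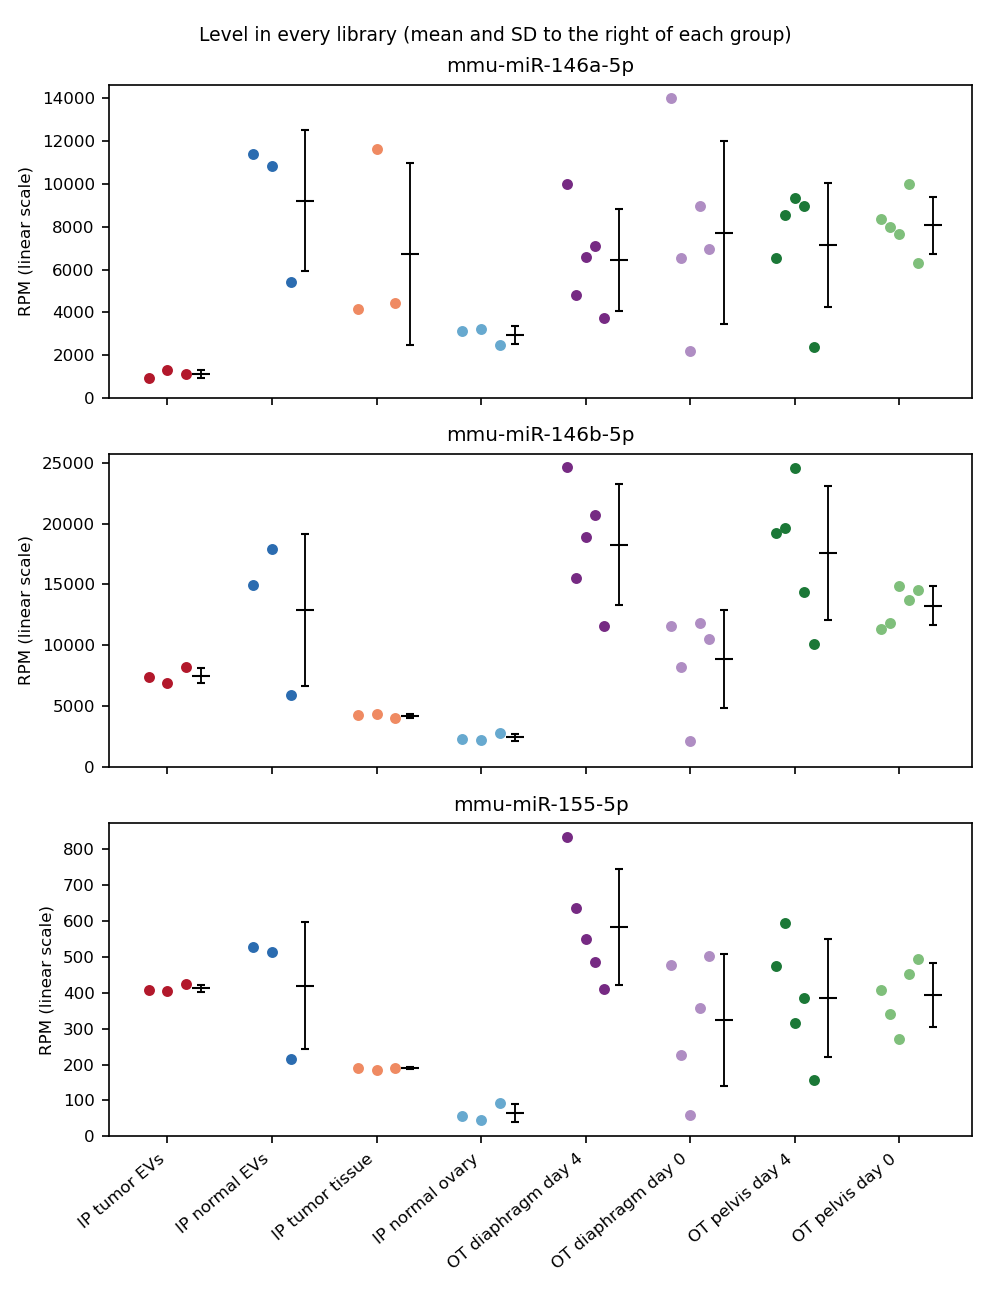
RPM of each of the 3 miRNAs (linear y axis, 1 panel per miRNA) in every library of the 8 groups on the x axis, with the group mean and SD as a bar to the right of the points. miR-146a-5p is lowest in tumor EVs (943 to 1299 RPM), while miR-146b-5p and miR-155-5p are lowest on average in normal ovary.

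The first comparison asks how the vesicles taken up in the tumor-bearing peritoneal cavity differed from those of normal mice. Among 378 miRNAs tested, limma on log2(RPM + 10) called 16.1% higher and 36% lower, where a call needed an adjusted p below 0.05 and an absolute log2 difference above 1. With median-of-ratios scaling in place of RPM these calls were 83 higher and 94 lower instead of 61 and 136, and the median log2 fold change of all miRNAs was -0.04 instead of -0.53. Of the 3 members, miR-146a-5p alone was called. It had 943, 1299 and 1109 RPM in tumor EVs, against 11409, 10828 and 5438 RPM in normal EVs. All tumor EV sheets lay below all normal EV sheets, and the lowest normal value was that of replicate 3, the sheet rich in red blood cell miRNAs. The log2 fold change was -2.97 (SE 0.32, adjusted p = 0.000219, limma), which was -3.32 without that sheet and -2.39 with median-of-ratios scaling.
Its seed partner miR-146b-5p had 7386, 6930 and 8183 RPM in tumor EVs, against 14932, 17917 and 5886 RPM in normal EVs. The groups overlapped only through normal EV replicate 3. The log2 fold change was -0.64 (SE 0.40, adjusted p = 0.204, limma), and without normal EV replicate 3 it was -1.13 and passed both thresholds (adjusted p = 0.000362, limma). miR-155-5p had 407, 405 and 424 RPM in tumor EVs, against 529, 515 and 217 RPM in normal EVs. The tumor EV values lay within the range of the normal ones, with a log2 fold change of 0.08 (95% interval -0.78 to 0.93, adjusted p = 0.857, limma), which was -0.33 without normal EV replicate 3. With median-of-ratios scaling miR-146b-5p was at -0.05 and miR-155-5p at 0.65 (adjusted p of 0.895 and 0.0684, limma). The 7 leukocyte miRNAs (miR-142a, miR-223, miR-150 and miR-342 strands) moved in the same comparison: 0 were called higher and 7 lower, with a median of -2.17 and a sum of 4092 to 4371 RPM in tumor EVs, against 12610 to 39111 RPM in normal EVs, and their part in the result was not tested. The lists of other cells fell as well: 5 of 5 epithelial miRNAs (median -2.28), 3 of 3 muscle miRNAs (median -2.51) and the 1 endothelial miRNA tested (-3.05) were called lower, whereas 0 of 5 red blood cell miRNAs were called (median -0.78), and the part of these lists was not tested either. Of the epithelial miRNAs, miR-141-3p had at most 3.16 RPM in tumor EVs and passed the filter of 10 RPM only through normal EVs. In sheets of mixed vesicles, fewer vesicles of a cell type and less miRNA per vesicle cannot be told apart. A single miRNA, miR-21a-5p, took 337280 ± 22573 RPM of the tumor EV libraries, against 103010 ± 49436 RPM of the normal EV libraries (SD, n = 3 each).

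The tissue comparison set tumor tissue against normal ovary, and so differs in organ as well as in tumor. Of 357 miRNAs tested, 13.2% were called higher and 10.4% lower. miR-155-5p rose, and it was the 1 member called. It had 191, 186 and 190 RPM in tumor tissue, against 57.0, 46.7 and 92.6 RPM in normal ovary. The tumor values were nearly equal and all above the ovary values. Its log2 fold change was 1.45 (SE 0.29, adjusted p = 0.0118, limma), 1.44 without tumor tissue replicate 3 (adjusted p = 0.0259). The adjusted p was 0.0774 without normal ovary replicate 1 and 0.0736 without normal ovary replicate 2, with log2 fold changes of 1.39 and 1.27.
miR-146b-5p had 4261, 4377 and 4027 RPM in tumor tissue, against 2303, 2227 and 2768 RPM in normal ovary. The groups did not overlap, and the log2 fold change of 0.80 (SE 0.20, adjusted p = 0.0233, limma) passed the p threshold but not the size threshold. miR-146a-5p had 4141, 11658 and 4426 RPM in tumor tissue, against 3105, 3229 and 2469 RPM in normal ovary. Replicate 2 held more than the other tumor tissues by a wide margin, and all tumor values lay above the ovary values. It differed by 1.03 on the log2 scale (SE 0.41, adjusted p = 0.103, limma) and was 0.55 without tumor tissue replicate 2 (adjusted p = 0.0378). Leukocyte miRNAs summed to 1156 to 2146 RPM in tumor tissue, against 620 to 925 RPM in normal ovary, with 3 of 7 called higher and 0 lower. Of the other lists, 1 of 2 endothelial and 1 of 2 ovary miRNAs were called lower, and of 3 muscle miRNAs 1 higher and 1 lower. The muscle miRNA miR-206-3p had at most 6.54 RPM in normal ovary and passed the 10 RPM filter only through tumor tissue. The part of these lists in the results was not tested.

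The difference between the tumor effects in EVs and in tissue was tested as an interaction over the 12 IP libraries. The tumor effect was called higher in EVs than in tissue for 13.7% of 422 miRNAs and lower for 27.5%. A call here concerns the tumor effect, not the level. For miR-146a-5p the EV effect minus the tissue effect was -4.01 on the log2 scale (SE 0.56, adjusted p = 0.000184, limma), and it remained called under all 25 alternatives. The differences of -1.43 for miR-146b-5p (SE 0.48, adjusted p = 0.0310, limma) and -1.37 for miR-155-5p (SE 0.47, adjusted p = 0.0360, limma) also passed. These 2 calls were lost with median-of-ratios scaling (80 calls higher and 84 lower, instead of 58 and 116), at -0.83 (adjusted p = 0.111) and -0.79 (adjusted p = 0.139), where the median of all miRNAs was -0.03 instead of -0.50. With the replicate number as a block, the adjusted p for miR-155-5p was 0.0541. Both calls also rested on single libraries. For miR-146b-5p the call was lost without any 1 of the 3 tumor EV sheets, normal EV replicates 1 and 2, tumor tissue replicate 1 or normal ovary replicates 1 and 2 (-1.50 to -1.12, adjusted p of 0.0502 to 0.0782, limma). For miR-155-5p the same libraries and tumor tissue replicate 3 ended it (-1.39 to -1.16, adjusted p of 0.0571 to 0.0923, limma). Without normal EV replicate 3 the differences were -4.35, -1.93 and -1.78 for miR-146a-5p, miR-146b-5p and miR-155-5p, and all 3 passed. The leukocyte list moved in the same direction, with the tumor effect called higher in EVs for 0 of 7 miRNAs and lower for 7 (median -3.44). Of the other lists, the tumor effect was called lower in EVs for 1 of 3 muscle and 1 of 2 endothelial miRNAs. It was called higher for 2 of 2 ovary miRNAs, which passed the 10 RPM filter through tissue. miR-202-5p averaged 725 RPM in normal ovary and 207 RPM in tumor tissue, against 1.87 RPM in normal EVs and 6.76 RPM in tumor EVs. miR-202-3p averaged 24.4 and 3.64 RPM in the same tissues and 0 RPM in both EV groups. The part of these lists was not tested.

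Set against the tissue of the same condition, the 3 miRNAs differed in direction. Of 351 miRNAs compared between EVs and tumor tissue of tumor-bearing mice, 23.9% were called higher in EVs and 23.4% lower. miR-146a-5p fell in EVs, with 943, 1299 and 1109 RPM in tumor EVs, against 4141, 11658 and 4426 RPM in tumor tissue, and the groups did not overlap. The log2 fold change was -2.42 (SE 0.41, adjusted p = 0.00262, limma), or -1.94 without tumor tissue replicate 2. miR-155-5p rose in EVs by 1.08 on the log2 scale (SE 0.18, adjusted p = 0.0026, limma), as all EV sheets (405 to 424 RPM) lay above all tumor tissues (186 to 191 RPM). The call was lost under other settings: the difference was 0.95 with a pseudocount of 50 RPM and 0.96 with edgeR, under the size threshold, and 1.10 with an adjusted p of 0.0563 (limma) without replicate 1 of both groups. For miR-146b-5p, 6930 to 8183 RPM in tumor EVs stood above 4027 to 4377 RPM in tumor tissue, and the log2 fold change of 0.83 (SE 0.16, adjusted p = 0.0051, limma) passed the p threshold but not the size threshold. When the reads of miR-146a-5p and miR-146b-5p were added together, the log2 fold change was -0.28 (adjusted p = 0.445, limma). A sum cannot show the directions of its 2 parts, so it does not tell how shared reads bear on them. Leukocyte miRNAs summed to 4092 to 4371 RPM in tumor EVs, against 1156 to 2146 RPM in tumor tissue, and 5 of 7 were called higher and 1 lower. Of the other lists, 2 of 5 red blood cell miRNAs were called higher. Called lower were 5 of 5 epithelial, 2 of 2 endothelial and 1 of 3 muscle miRNAs. Of these, miR-141-3p and miR-126a-5p had at most 3.16 and 5.68 RPM in tumor EVs and passed the 10 RPM filter only through tumor tissue. The part of these lists was not tested.
In normal mice, where 35.9% of 390 miRNAs were called higher in EVs than in ovary and 23.1% lower, all 3 rose. The split was 90 higher and 110 lower with median-of-ratios scaling, instead of 140 and 90. miR-155-5p had 529, 515 and 217 RPM in normal EVs, against 57.0, 46.7 and 92.6 RPM in normal ovary, and was higher by 2.45 on the log2 scale (SE 0.41, adjusted p = 0.00113, limma). For miR-146b-5p the difference on the same scale was 2.26 (SE 0.40, adjusted p = 0.00144, limma), whose 5886 to 17917 RPM in normal EVs lay above 2227 to 2768 RPM in normal ovary. It was smallest for miR-146a-5p, at 1.58 on the log2 scale (SE 0.31, adjusted p = 0.00233, limma), with 5438 to 11409 RPM in normal EVs above 2469 to 3229 RPM in normal ovary. Without normal EV replicate 3 the differences were 2.86 for miR-155-5p, 2.75 for miR-146b-5p and 1.93 for miR-146a-5p, all still called. With median-of-ratios scaling, in which the median of all miRNAs was 0.04 instead of 0.50, miR-146a-5p was 0.99 and under the size threshold, while miR-146b-5p and miR-155-5p remained called at 1.66 and 1.90. The leukocyte list had 6 of 7 miRNAs called higher in normal EVs and 0 lower, with a median of 4.98. Of the other lists, 2 of 3 muscle and 1 of 5 red blood cell miRNAs were called higher. Called lower were 5 of 5 epithelial, 2 of 2 endothelial and 2 of 2 ovary miRNAs. The ovary miRNAs miR-202-5p and miR-202-3p had at most 4.17 and 0 RPM in normal EVs and passed the 10 RPM filter only through ovary. Likewise, miR-206-3p of the muscle list had at most 6.54 RPM in normal ovary and passed only through normal EVs. The part of these lists in the result was not tested. Both EV against tissue comparisons share their libraries with the comparisons above, so they are no independent evidence.

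**Figure D2:**
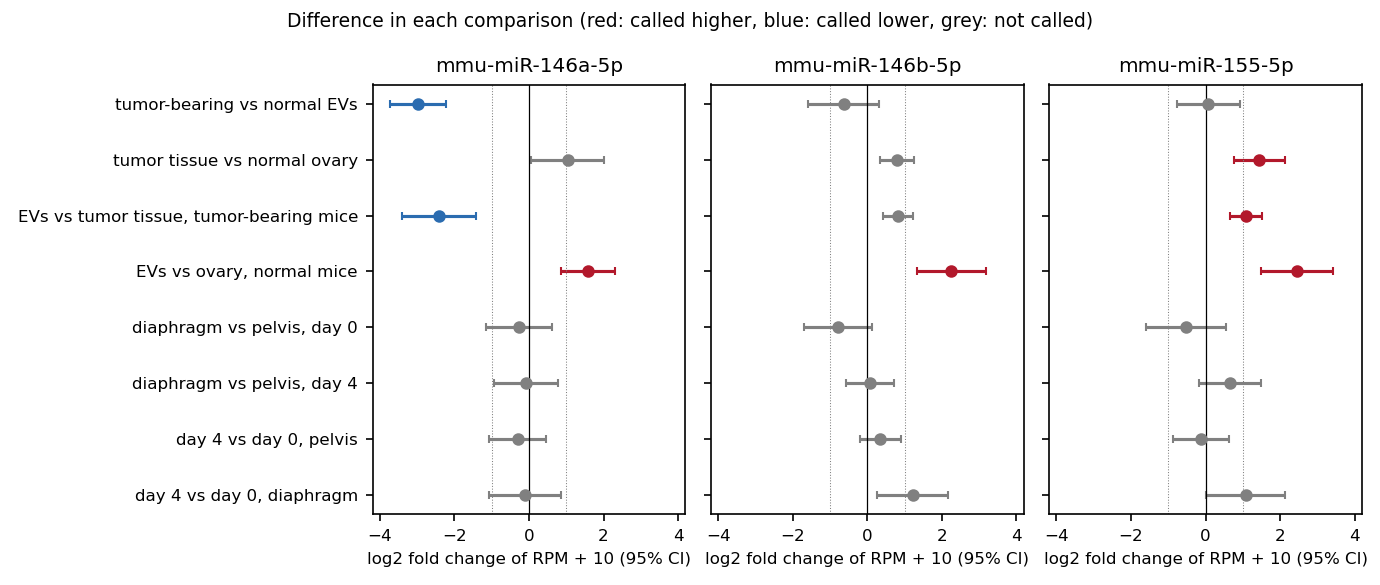
Log2 fold changes of RPM + 10 with 95% confidence intervals (x axis) in the 8 comparisons (y axis), 1 panel per miRNA, with dotted lines at -1 and 1. The blue points of miR-146a-5p at -2.97 and -2.42 are those that involve tumor EVs, and the grey points of the OT comparisons were not called.

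In the OT model the question was whether the vesicles changed between day 4 and day 0 at each site. At the diaphragm 15.5% of 407 miRNAs were called higher on day 4 and 2.95% lower (63 and 12, but 45 and 37 with median-of-ratios scaling), and none of the 3 members passed. miR-146b-5p came closest. On the diaphragm sheets it had 24602, 15557, 18856, 20725 and 11617 RPM on day 4, against 11555, 8250, 2138, 11826 and 10498 RPM on day 0. Only the lowest day 4 sheet, replicate 5, fell below the highest day 0 sheet, replicate 4. The log2 fold change was 1.22 (SE 0.44, adjusted p = 0.0658, limma), with 0.76 and an adjusted p of 0.0465 without day 0 replicate 3, the hepatocyte-rich sheet, and 1.37 (adjusted p = 0.0470) without day 0 replicate 1. Within library code NGS001 of the labels (replicates 1, 3 and 4 of every OT group) it was 1.68. Within code NGS002 (replicates 2 and 5 of every OT group) it was 0.53. The hepatocyte-rich day 0 replicate 3 thus belongs to NGS001.
miR-155-5p had 833, 636, 551, 485 and 411 RPM at the diaphragm on day 4, against 479, 226, 60.6, 357 and 503 RPM on day 0. Most day 4 sheets lay above day 0, but 2 of 5 lay within its range. It was higher on average by 1.07 on the log2 scale (SE 0.50, adjusted p = 0.150, limma), and 0.59 without day 0 replicate 3, in which miR-155-5p was lowest. By library code it was 1.40 in NGS001 and 0.58 in NGS002. With median-of-ratios scaling, where the median of all miRNAs was -0.09 instead of 0.20, miR-146b-5p was at 0.84 (adjusted p = 0.0635, limma) and miR-155-5p at 0.72 (adjusted p = 0.191, limma). For miR-146a-5p the diaphragm sheets had 9980, 4787, 6586, 7114 and 3747 RPM on day 4, against 14002, 6520, 2166, 8992 and 6961 RPM on day 0. All day 4 values lay within the day 0 range, and the log2 fold change was -0.11 (95% interval -1.08 to 0.85, adjusted p = 0.898, limma). It was 0.26 in NGS001 and -0.67 in NGS002, and became 0.16 without day 0 replicate 1 and 0.06 without day 4 replicate 5. Hepatocyte miRNAs at this site summed to 94.1 to 22242 RPM on day 4, against 1297 to 174765 RPM on day 0, and red blood cell miRNAs to 30368 to 84487 RPM on day 4, against 3677 to 139068 RPM on day 0, and their part in these values was not tested.

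At the pelvis, 18.9% of 403 miRNAs were called higher on day 4 and 5.21% lower (76 and 21, but 58 and 51 with median-of-ratios scaling), and again none of the members passed. miR-146b-5p had 19223, 19666, 24584, 14381 and 10104 RPM on day 4, against 11338, 11807, 14864, 13742 and 14579 RPM on day 0. The 3 highest values were of day 4, and the lowest of all was day 4 replicate 5. The log2 fold change was 0.35 (95% interval -0.19 to 0.90, adjusted p = 0.329, limma) and -0.11 with TMM scaling, where the median of all miRNAs was -0.22 instead of 0.18. It was 0.52 in NGS001 and 0.10 in NGS002, and without day 4 replicate 5 it was 0.54 (adjusted p = 0.0443).
miR-146a-5p had 6557, 8545, 9360, 8988 and 2358 RPM at the pelvis on day 4, against 8350, 8003, 7669, 9980 and 6326 RPM on day 0. Day 4 replicate 5 alone lay below the day 0 range, and the log2 fold change of -0.31 (95% interval -1.07 to 0.46, adjusted p = 0.564, limma) was 0.05 without it. By library code it was -0.07 in NGS001 and -0.66 in NGS002. miR-155-5p had 476, 594, 317, 385 and 158 RPM at the pelvis on day 4, against 408, 342, 271, 451 and 495 RPM on day 0. The groups overlapped, with a log2 fold change of -0.12 (95% interval -0.88 to 0.64, adjusted p = 0.851, limma), which was 0.16 without day 4 replicate 5 and 0.07 within NGS001. That sheet held 145488 reads, of which 23 were of miR-155-5p, so that counting error alone gives its 158 RPM an exact 95% Poisson interval of 100.2 to 237 RPM. It also held 112119 RPM of red blood cell miRNAs, against up to 94063 RPM in the others of its group. Its hepatocyte sum was 1237 RPM, against 0 to 72.4 RPM in the others. Its leukocyte sum was the lowest of the group, 7623 RPM, against up to 24949 RPM in the others. The leukocyte list had 0 of 7 miRNAs called in either direction between days at either site, with medians of 0.04 at the diaphragm and -0.03 at the pelvis. With median-of-ratios scaling 2 of the 7 were called lower at the pelvis.

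Other miRNAs linked to inflammation are given beside the members. In a list of 14 such miRNAs, which leaves out the members, 8 were called higher and 0 lower on day 4 at the diaphragm (15.5% higher and 2.95% lower over all miRNAs tested), with a median log2 fold change of 1.22 against 0.20 over all miRNAs tested, and 4 were called higher and 2 lower at the pelvis (median 0.76 against 0.18, with 18.9% higher and 5.21% lower over all). With median-of-ratios scaling these counts were 6 higher and 4 lower at the diaphragm and 4 higher and 3 lower at the pelvis. Without pelvis day 4 replicate 5 they were 7 higher and 2 lower at the pelvis. The list was chosen with earlier results of these data known and holds both strands of miR-21a and miR-212. On day 0 at the diaphragm miR-147-3p, miR-212-3p and miR-212-5p had at most 4.02, 4.75 and 8.55 RPM. They passed the filter of 10 RPM there only through day 4, as did miR-147-3p at the pelvis. The counts are thus no test of the list against all miRNAs. The most abundant of those called at the diaphragm were miR-21a-5p, induced in many wounded and inflamed tissues, and miR-222-3p, expressed in endothelium and proliferating cells. miR-21a-5p averaged 238360 ± 37582 RPM on day 4, against 90605 ± 25852 RPM on day 0 (SD, n = 5 each), and rose by 1.44 on the log2 scale (SE 0.26, adjusted p = 0.00138, limma). miR-222-3p averaged 1574 ± 471 RPM on day 4, against 658 ± 257 RPM on day 0 (SD, n = 5 each), and rose by 1.27 (adjusted p = 0.0170, limma). miR-147-3p, which is induced by Toll-like receptor signaling in macrophages and is singled out here after its values were seen, averaged 38.1 ± 12.5 RPM at the diaphragm on day 4, against 2.12 ± 1.65 RPM on day 0, and 45.30 ± 22.01 RPM at the pelvis on day 4, against 2.31 ± 1.48 RPM on day 0 (SD, n = 5 each). On the log2(RPM + 10) scale day 4 was higher by 1.95 at the diaphragm and 2.08 at the pelvis. Its day 0 values were at most 4.02 RPM at the diaphragm and 3.62 RPM at the pelvis. It thus passed the filter of 10 RPM only through day 4, and no p-value is given for it. At the pelvis the 2 called lower were miR-125a-5p and miR-125b-5p, of which miR-125b-5p is known to repress Tnf. miR-125b-5p averaged 2444 ± 1646 RPM on day 4, against 6026 ± 1568 RPM on day 0, and miR-125a-5p 1229 ± 720 RPM on day 4, against 3780 ± 983 RPM on day 0 (SD, n = 5 each). Red blood cell miRNAs moved with the day as well, at 28529 to 112119 RPM on the pelvic sheets of day 4, against 781 to 56212 RPM on day 0, and their part in these results was not tested.

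**Figure D3:**
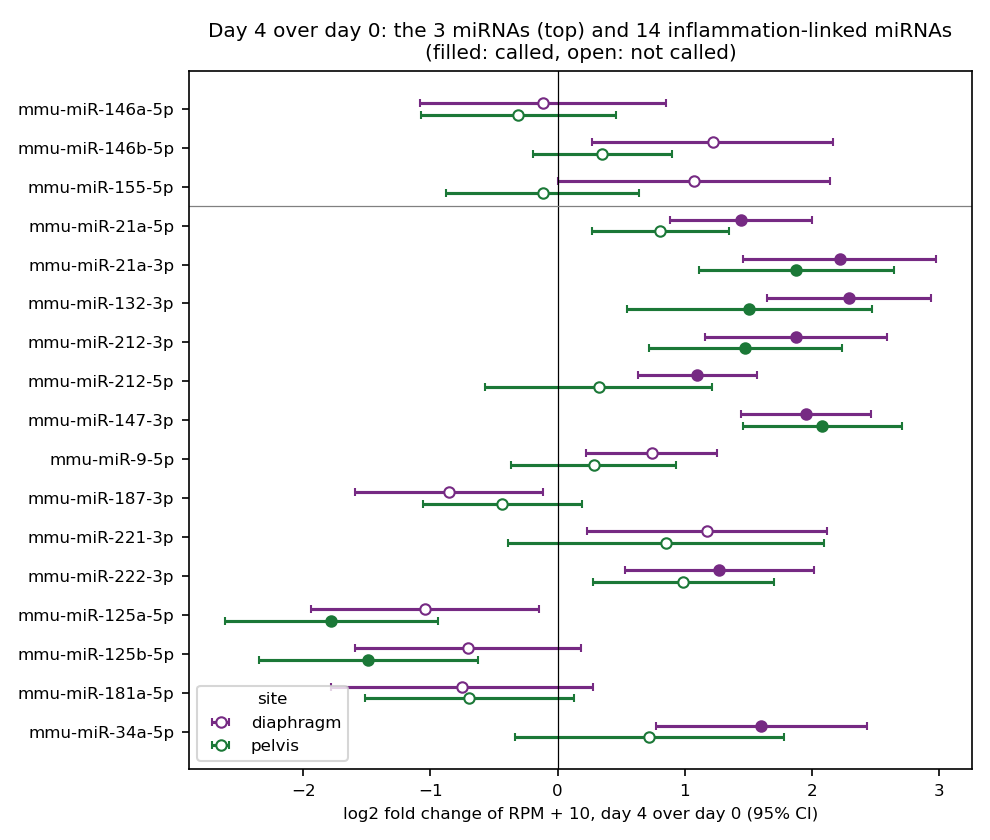
Log2 fold changes of RPM + 10 for day 4 over day 0 (x axis, 95% confidence intervals) for the 3 miRNAs above the line and 14 inflammation-linked miRNAs below it (y axis), with the diaphragm in purple and the pelvis in green. Points are filled where called: none of the 3 members, 8 of the 14 at the diaphragm (all higher) and 6 of the 14 at the pelvis (4 higher, 2 lower). Over all miRNAs tested, 15.5% were called higher and 2.95% lower at the diaphragm, and 18.9% and 5.21% at the pelvis. Some of the 14 passed the filter only through day 4, so these counts are no test of the list.

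In the IP model, 3 of 11 tested miRNAs of this list were called higher and 3 lower in tumor EVs against normal EVs (median 0.37 against -0.53 over all miRNAs, of which 16.1% were higher and 36% lower), or 5 and 1 with median-of-ratios scaling. In tumor tissue against normal ovary 6 of 13 were higher and 1 lower (median 0.76 against -0.05, with 13.2% higher and 10.4% lower over all). In that comparison miR-147-3p and miR-21a-3p passed the filter of 10 RPM only through tumor tissue, with at most 1.93 and 6.54 RPM in normal ovary. miR-21a-5p was among those that rose in both comparisons, by 1.85 in tumor EVs (SE 0.37, adjusted p = 0.00432, limma) and by 2.75 in tumor tissue (SE 0.22, adjusted p = 0.000917, limma). In tumor EVs the largest change of the list was that of miR-9-5p, chosen after its values were seen, which is induced by Toll-like receptor signaling in human monocytes and neutrophils. It averaged 846 ± 154 RPM in tumor EVs, against 21.0 ± 7.69 RPM in normal EVs (SD, n = 3 each), and rose by 4.80 on the log2 scale (SE 0.28). As it was picked as the largest change, no p-value is given for it, and the source of its rise was not tested.

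Between sites no member was called. On day 0, when 0.779% of 385 miRNAs were called higher at the diaphragm and 0.779% lower, the log2 fold changes of diaphragm over pelvis were -0.28 for miR-146a-5p (95% interval -1.17 to 0.61, adjusted p = 0.757), -0.79 for miR-146b-5p (-1.71 to 0.12, adjusted p = 0.435) and -0.53 for miR-155-5p (-1.60 to 0.54, adjusted p = 0.629, limma). Diaphragm replicate 3 held the lowest value of all 10 sheets for each of them, at 2166, 2138 and 60.6 RPM. Without it the 3 values were 0.12, -0.34 and -0.04. With the replicate block 21 miRNAs were called instead of 6, and none of the 3 was among them. By library code, NGS001 gave -0.41, -0.99 and -0.70 and NGS002 gave -0.08, -0.50 and -0.28.
On day 4, 0% of 424 miRNAs were called higher and 0% lower by limma, where 40 had an unadjusted p under 0.05, edgeR called 0, DESeq2 called 9 and limma with the replicate block called 7. miR-155-5p had the largest difference of the members, 0.66 (95% interval -0.16 to 1.49, adjusted p = 0.661, limma), with 411 to 833 RPM at the diaphragm, against 158 to 594 RPM at the pelvis. It was 0.39 without pelvis replicate 5, and 0.63 in NGS001 and 0.71 in NGS002. The differences were -0.08 for miR-146a-5p (95% interval -0.93 to 0.77, adjusted p = 0.979, limma) and 0.07 for miR-146b-5p (95% interval -0.57 to 0.71, adjusted p = 0.967, limma). Leaving out single sheets turned the direction of both: of miR-146a-5p for pelvis replicates 2, 3 and 4 and diaphragm replicates 2 and 5 (0.02, 0.05, 0.04, 0.01 and 0.09), and of miR-146b-5p for diaphragm replicate 1 and pelvis replicate 5 (-0.05 and -0.11).
The day effect at the diaphragm minus that at the pelvis was 0.20 for miR-146a-5p (SE 0.59), 0.87 for miR-146b-5p (SE 0.52) and 1.19 for miR-155-5p (SE 0.63). None passed (adjusted p of 0.999, 0.791 and 0.747, limma), in a test that called 0.224% of 446 miRNAs higher and 0.224% lower. The first became -0.20 without diaphragm day 0 replicate 3 and -0.17 without pelvis day 4 replicate 5.

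The ratio of miR-146b-5p to miR-146a-5p within a library does not depend on how the library is scaled, and it ranged from 0.375 in tumor tissue replicate 2 to 7.83 in tumor EV replicate 1. It was tested by an exact two-sided permutation test over samples in each of the 8 comparisons, and none passed after Benjamini-Hochberg adjustment over the 8. Tumor EVs had ratios of 7.83, 5.33 and 7.38, against 1.31, 1.65 and 1.08 in normal EVs. They did not overlap, and the geometric means of 6.76 and 1.33 differed by 2.35 on the log2 scale (exact permutation p = 0.1, the smallest that 3 against 3 libraries allow, adjusted p = 0.16). Against the 1.03, 0.375 and 0.910 of tumor tissue, the tumor EV ratios again did not overlap, and the difference was 3.26 (exact permutation p = 0.1, adjusted p = 0.16).
The tissues themselves were close, with geometric means of 0.706 in tumor tissue and 0.831 in normal ovary (exact permutation p = 0.8), and this difference of -0.24 turned to 0.22 without tumor tissue replicate 2. In normal mice the geometric mean was 1.33 in EVs and 0.831 in ovary (exact permutation p = 0.2).

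At the diaphragm the ratio was 2.47, 3.25, 2.86, 2.91 and 3.10 on day 4, against 0.825, 1.26, 0.987, 1.32 and 1.51 on day 0. All day 4 sheets lay above all day 0 sheets, although neither miRNA was called on its own. The difference of geometric means (2.91 and 1.15) was 1.33 on the log2 scale (exact permutation p = 0.00794, the smallest that 5 against 5 allow, adjusted p = 0.0635), and it was 1.42 within NGS001 and 1.20 within NGS002. Without the hepatocyte-rich day 0 replicate 3 it was 1.28.
At the pelvis the ratio was 2.93, 2.30, 2.63, 1.60 and 4.29 on day 4, against 1.36, 1.48, 1.94, 1.38 and 2.30 on day 0. The groups overlapped, but each of the 5 day 4 sheets exceeded the day 0 sheet of the same replicate number. The difference was 0.66 (exact permutation p = 0.0476, adjusted p = 0.127). With the replicate block its exact sign-flip p was 0.0625, the smallest that 5 pairs allow. It was 0.59 within NGS001 and 0.77 within NGS002, and 0.48 without day 4 replicate 5 (exact permutation p = 0.103), and leaving out any 1 of day 4 replicates 1, 2, 3 and 5 or day 0 replicates 1, 2, 3 and 4 gave an exact permutation p of 0.0556 to 0.103.
Between sites, the day 0 ratio was 1.15 at the diaphragm and 1.65 at the pelvis (geometric means, log2 difference -0.52, exact permutation p = 0.0476, adjusted p = 0.127). With the replicate block that p was 0.0625, and all 5 diaphragm sheets lay below the pelvic sheet of the same number. The exact permutation p was 0.0794 to 0.111 when any 1 of diaphragm replicates 1, 2, 3 and 4 or pelvis replicates 2, 3 and 5 was left out. Within NGS001 the difference was -0.59 and within NGS002 -0.42. On day 4 the ratio was 2.91 at the diaphragm and 2.61 at the pelvis (exact permutation p = 0.571), a difference of 0.15 that was 0.25 within NGS001, 0.02 within NGS002 and -0.02 without pelvis replicate 4. In all of these, the sharing of reads between the near-identical sequences bears on the ratio, and its part was not tested.

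**Figure D4:**
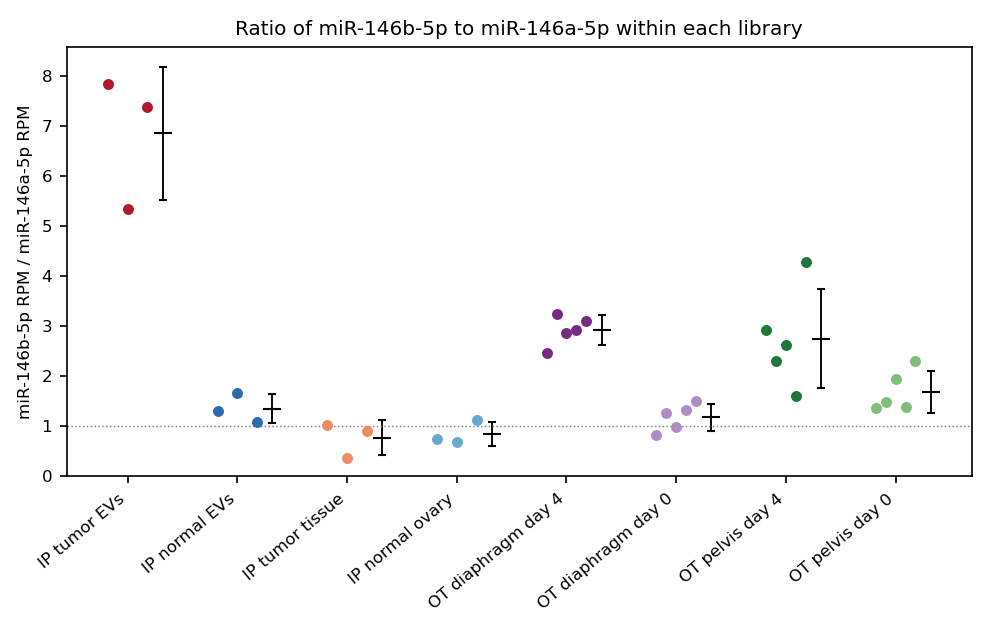
Ratio of miR-146b-5p to miR-146a-5p RPM (linear y axis) in each library of the 8 groups (x axis), with the group mean and SD to the right of the points and a dotted line at 1. Tumor EVs (5.33 to 7.83) and diaphragm sheets of day 4 (2.47 to 3.25) lie apart from normal EVs (1.08 to 1.65) and diaphragm sheets of day 0 (0.825 to 1.51).

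The partner strands were scarce. Over the 32 libraries together, miR-146a-3p had 22 reads and was at 0 in 19 libraries, miR-155-3p had 70 reads and was at 0 in 7, and miR-146b-3p had 683 reads and was at 0 in 1 library. Only miR-146b-3p passed the filter on low values, in 6 of the 8 comparisons, and it was called in none. It is shown, with its own seed in capitals, as the partner strand with the most reads.
mmu-miR-146b-3p: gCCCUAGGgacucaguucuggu
At the diaphragm miR-146b-3p had 65.4, 34.8, 22.7, 59.6 and 20.3 RPM on day 4, against 16.1, 22.1, 4.33, 29.8 and 21.4 RPM on day 0. The groups overlapped and differed by 0.79 on the log2 scale (SE 0.35, adjusted p = 0.130, limma). At the pelvis it had 52.9, 43.8, 67.9, 85.6 and 27.5 RPM on day 4, against 20.3, 35.2, 39.5, 36.2 and 23.8 RPM on day 0, and the log2 fold change was 0.63 (SE 0.30, adjusted p = 0.143, limma). All but 1 of these day 4 pelvic sheets lay above the highest day 0 sheet. In the IP model it had 20.2, 15.8 and 13.9 RPM in tumor EVs, against 19.95, 40.3 and 9.30 RPM in normal EVs, a difference of -0.22 (adjusted p = 0.616, limma). Against tumor tissue, where it had at most 6.23 RPM from 5, 0 and 4 reads, it was 0.95 higher in tumor EVs on the log2 scale, under the size threshold. It passed the filter of 10 RPM there only through tumor EVs, so no p-value is given.

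Across the 8 group means of log2(RPM + 10), miR-146b-5p and miR-155-5p followed each other (Pearson r = 0.91, but Spearman's rho of 0.67). By r, miR-146a-5p was further from both (r = 0.42 and rho = 0.52 with miR-146b-5p, r = 0.20 and rho = 0.14 with miR-155-5p). Within groups, over the 32 libraries' deviations from their group means, r was 0.79 for miR-146a-5p and miR-146b-5p, 0.73 for miR-146a-5p and miR-155-5p and 0.85 for miR-146b-5p and miR-155-5p. By rank the link was weaker, with Spearman's rho of 0.59, 0.48 and 0.64 for the same pairs. These points share library, depth and the scaling to total reads, and the groups share libraries with the comparisons above. Among 278 miRNAs with a mean of at least 100 RPM in a group, the group means most like those of miR-146a-5p were those of miR-337-5p (r = 0.94), miR-541-5p (0.92), miR-434-5p (0.90), miR-127-3p (0.89) and miR-378d (0.89), with Spearman's rho of 0.738 to 0.905. Of these, miR-541-5p, miR-434-5p and miR-127-3p did not follow it within groups (r of -0.04, -0.11 and -0.03), while miR-378d did (0.82).
Closest to miR-146b-5p were miR-425-3p (r = 0.98), miR-361-5p, miR-3074-2-3p, miR-362-3p and miR-532-5p (0.94), with rho of 0.905 to 0.976 and r of 0.50 to 0.83 within groups. miR-362-5p (r = 0.96), miR-425-5p, miR-23a-3p, miR-15a-5p and miR-350-3p (0.94) were closest to miR-155-5p, with rho of 0.476 to 0.929 and r of 0.26 to 0.67 within groups. No leukocyte marker miRNA was among these 15, but the list holds only 7 miRNAs beside 278 candidates, so few could appear. A link of the members to leukocytes was not tested by this ranking.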

How the data were processed

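Small RNA-seq of 32 mouse libraries was used. The authors trimmed adapters and used CLC Genomics Workbench 9.5.3 to match reads to miRBase 22, tolerating 2 mismatches. They deposited RPM (mapped reads scaled to 1000000 per library) for 1513 miRNAs. The genome build was not given in the sources used here. Each value was a whole multiple of 1 read (100% within a tolerance of 0.001), so reads could be recovered. Depth was 132483 to 2540577 reads, and Poisson intervals cover counting error only.

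Each comparison was fitted to log2(RPM + 10) with limma 3.58.1 in R 4.3.3 (trend, two-sided), over miRNAs that reached 10 RPM in at least the sample number of the smaller group, with Benjamini-Hochberg adjustment over all miRNAs tested. Fold changes on this scale understate the change of low miRNAs. Calls needed an adjusted p below 0.05 together with an absolute log2 difference above 1. Alternatives were quasi-likelihood tests of the recovered reads in edgeR 4.0.16, DESeq2 1.42.0, other pseudocounts (1 and 50 RPM), filters (none and 100 RPM), scalings, the replicate block, library codes, omitted libraries and the summed miR-146 reads. For the ratio, the replicate block, the library codes and the omission of single libraries were added after seeing the data.

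The 3 miRNAs and the lists were chosen with earlier results of these data known. The text names the 3 miRNAs, their partner strands, list members by abundance and the 5 miRNAs with the most similar group means. The fits were tested on simulated data with 200 changed miRNAs. Replicate numbers from the labels were taken to pair samples where the correlation of deviations exceeded 0.1 in every pair, which held for IP EVs (0.169 to 0.271), normal EVs with ovary (0.182 to 0.255), the sites on day 0 (0.397 to 0.704) and day 4 (0.119 to 0.737) and the days at the pelvis (0.189 to 0.631). Human samples and cell lines were not analysed here.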

Additional observations from a re-analysis of the deposited data

Results flagged for a closer look

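The difference between the tumor effects in EVs and in tissue passed its own test for each of the 3 miRNAs, but held under every alternative for miR-146a-5p alone. On the log2 scale the EV effect minus the tissue effect was -4.01 for miR-146a-5p, -1.43 for miR-146b-5p and -1.37 for miR-155-5p (limma interaction, adjusted p of 0.000184, 0.0310 and 0.0360). The call was kept in 25 of 25 alternatives for miR-146a-5p, in 10 of 25 for miR-146b-5p and in 6 of 24 for miR-155-5p. For the miR-146 members these include the fit of their summed reads (-2.21), which tests neither miRNA alone. Most of the other alternatives leave out libraries of the same set and so overlap each other. The tissue effect compared tumor tissue with normal ovary, so that organ and tumor cannot be told apart in it. Among the OT groups of 5 sheets, Dixon's test set 2 sheets apart on the log2(RPM + 10) scale, which was looked at after the data were seen, and none on the RPM scale. Diaphragm day 0 replicate 3 was the lowest of its group for miR-146b-5p, at 2138 RPM (gap over range 0.789), and pelvis day 4 replicate 5 for miR-146a-5p, at 2358 RPM (0.742), both against a critical value of 0.71. The test was run for each of the 3 miRNAs and for the miR-146b-5p to miR-146a-5p ratio in every OT group, on both scales. Chance flags about 1 in 20 such tests. The first is the diaphragm sheet rich in hepatocyte miRNAs. The second held 1237 RPM of hepatocyte miRNAs, against 0 to 72.4 RPM in the other sheets of its group. Its 112119 RPM of red blood cell miRNAs was the highest of the group, but replicate 4 held 94063 RPM with 8988 RPM of miR-146a-5p. The part of either cell type in these values was not tested.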

How the results depend on the processing

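The calls of miR-146a-5p in tumor against normal EVs (-3.32 to -2.67 with libraries left out) and in the difference of tumor effects (-4.45 to -3.53) held under every alternative run. The RPM scale, the low depth of day 4 sheets and the unknown assignment of shared miR-146 reads limit the rest, and where a value below changed, the cause was not tested. With miR-146a-5p and miR-146b-5p summed, the log2 fold change was -1.25 for tumor against normal EVs (adjusted p = 0.0177, limma), -0.28 for tumor EVs against tumor tissue, 0.018 between sites on day 4, 0.14 between days at the pelvis and 0.74 at the diaphragm. For miR-146a-5p, DESeq2 gave 1.18 in tumor tissue (adjusted p = 0.0482), and normal EVs against ovary came to 0.99 (median-of-ratios), 0.85 (TMM) and 0.96 (edgeR). Its values near 0 changed sign between sites at 0.0012 (day 0, DESeq2) and 0.011 (day 4, TMM), between days at the diaphragm at 0.26 (NGS001), and in the difference of day effects at -0.026 (edgeR), -0.0086 (DESeq2) and -0.0055 (NGS002). miR-155-5p in tumor EVs against tumor tissue was 0.95 with a pseudocount of 50 RPM and 0.96 with edgeR, under the size threshold. Its day difference at the pelvis was 0.072 in NGS001. For miR-146b-5p the day difference was -0.11 at the pelvis with TMM and 1.22 at the diaphragm with all libraries in 1 fit (adjusted p = 0.0183, limma), and the site difference on day 4 was -0.068 in NGS002.
The difference of tumor effects lost its call for miR-146b-5p with no filter (-1.43), median-of-ratios (-0.83), TMM (-0.67), edgeR (-0.61) and DESeq2 (-0.96). For miR-155-5p it did so with a pseudocount of 50 RPM (-1.01), no filter (-1.37), median-of-ratios (-0.79), TMM (-0.65), edgeR (-0.61), DESeq2 (-0.94) and the replicate block (-1.37), which changed no other call of the 3 miRNAs. For the ratio of miR-146b-5p to miR-146a-5p, the replicate block and the codes NGS001 and NGS002 gave -0.52, -0.59 and -0.42 between sites on day 0, 0.66, 0.59 and 0.77 between days at the pelvis, and 1.33, 1.42 and 1.20 at the diaphragm. None of these reached an exact p under 0.05, which so few pairs or libraries cannot give. In the comparisons whose numbers did not pair samples, same-numbered deviations correlated at -0.06 to 0.13 (tumor tissue with ovary), 0.07 to 0.13 (tumor EVs with tumor tissue) and -0.32 to 0.54 (days at the diaphragm), with 2 of 3, 2 of 3 and 2 of 5 samples closest to their own number, and the block gave 81, 163 and 65 calls instead of 84, 166 and 75.
With libraries left out, the ratio ranged over -0.59 to 0.22 in tumor tissue against ovary, -0.63 to -0.40 and -0.024 to 0.33 between sites on day 0 and day 4, and 0.48 to 0.84 between days at the pelvis. miR-146a-5p ranged over -0.55 to 0.12 and -0.44 to 0.11 between sites on day 0 and day 4, -0.46 to 0.054 and -0.54 to 0.16 between days at the pelvis and the diaphragm, and -0.20 to 0.47 in the difference of day effects. miR-146b-5p ranged over -1.19 to -0.27 in tumor against normal EVs, -0.11 to 0.22 between sites on day 4, 0.74 to 1.49 between days at the diaphragm and -2.12 to -0.98 in the difference of tumor effects. miR-155-5p ranged over -0.35 to 0.30 in tumor against normal EVs, 1.27 to 1.69 in tumor tissue against ovary, 1.06 to 1.10 in tumor EVs against tumor tissue, -0.34 to 0.25 between days at the pelvis and -2.04 to -0.99 in the difference of tumor effects.
With a filter of 100 RPM fewer miRNAs were tested, and those called numbered 101 instead of 197 (tumor against normal EVs), 54 instead of 84 (tumor tissue), 110 instead of 166 (tumor EVs against tissue), 133 instead of 230 (normal EVs against ovary), 111 instead of 174 (difference of tumor effects) and, between days, 56 instead of 97 (pelvis) and 32 instead of 75 (diaphragm). A pseudocount of 50 RPM gave 119, 55, 151 and 44 for tumor against normal EVs, tumor tissue, normal EVs against ovary and days at the diaphragm. With NGS002 alone they were 0 instead of 97 between days at the pelvis and 13 instead of 75 at the diaphragm. That code holds only replicates 2 and 5 of each group, so fewer sheets and a different code cannot be told apart there. Between sites on day 0 there were 16 calls with DESeq2 instead of 6, and 0 and 3 with NGS001 and NGS002 alone. In tumor tissue 36 and 34 calls were left without normal ovary replicate 1 and replicate 2, and 0 without replicate 1 of both groups, which also left 107 for tumor EVs against tissue and 70 for the difference of tumor effects. The difference of day effects had 2 calls, and 0 to 3 over its alternatives.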
